A study of Rattus norvegicus with 18 samples.

Results

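The colons of rats recovered 7 days after a colitis-inducing enema were compared with colons recovered 2 days after the same enema. The enema held trinitrobenzene sulfonic acid (TNBS), given once at day 0. The comparison used 6 of the 18 arrays of the study, namely the 3 arrays titled TNBS day 7 and the 3 titled TNBS day 2. All 31042 probe sets that were not array controls were tested. The day 7 rats and the day 2 rats had both received 10 mg of TNBS in 50% ethanol, and differed by the labels only in the day of recovery. The 3 day 5 and 3 day 14 arrays, from rats given the same enema, entered the fit to estimate the spread between rats, and the 6 arrays of saline-treated rats were not used. For every day the study chose 3 rats by their inflammatory markers, which were myeloperoxidase activity, loss of body weight and the ratio of colon weight to length. The values therefore describe rats picked for inflammation, and the level of neutrophil transcripts is partly tied to that choice. No rats given ethanol alone are in the labels, and neither strain, sex nor age is given there.

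TNBS is a hapten, a small molecule that becomes antigenic by binding to proteins of the host. Ethanol breaks the mucosal barrier and lets TNBS reach the colonic wall, where neutrophils arrive first, monocytes and macrophages follow, and fibroblasts later lay down new matrix. The same wall normally absorbs sodium and water and secretes mucus, and its epithelium is renewed by division in the crypts. RNA came from homogenised full-thickness colon, so mucosa, muscle and the outer serosal layer were measured together, and fewer cells of a type cannot be told apart from less RNA per cell.

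RNA was hybridised to the Affymetrix Rat Genome 230 2.0 Array, with 1 array per sample, and the deposited values were read as log2 signals. The goblet cell mucin Muc2 and the smooth muscle actin Acta2 stood above at least 97.9% of all probe sets on both days by their mean. Median signal was 5.05 in each day 7 array and lay between 5.03 and 5.06 in the day 2 arrays. Replicate 1 of day 2 stood apart from the other day 2 arrays in its likeness to day 14. Its mean correlation with the day 14 arrays over all probe sets was 0.987, against 0.971 for replicate 2 and 0.970 for replicate 3. Its mean correlation with its own day, 0.970, was close to that of replicate 3, 0.971. Replicate 1 of day 5 was also nearer to day 14 (0.984) than to its own day (0.980). Replicate 3 of day 2 carried the highest lymphocyte signal of the 6 arrays. Differences are therefore given with and without replicate 1 or replicate 3 of day 2 where they move a result. The difference between the 3' and 5' probe sets of beta-actin, a reading of RNA quality, was 1.34 ± 0.06 log2 units on day 7 and 1.07 ± 0.26 on day 2 (SD, n = 3 each; two-sided exact permutation p = 0.3, where 0.1 is the smallest that 3 against 3 arrays allow). For Gapdh the values were 0.59 ± 0.05 and 0.53 ± 0.18 (p = 0.6 by the same exact test).

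Of the 31042 probe sets, 12 were higher on day 7 and 1 was lower in limma's moderated test at a Benjamini-Hochberg adjusted p under 0.05, which is 0.0387% and 0.00322% of those tested. The 13 probe sets belonged to 8 named genes and to 4 probe sets with no gene symbol listed. In all 13, no day 7 array overlapped a day 2 array. The 8 genes were Ifit3, Ccl9, Ccl4, Tmem178a, Abca1, Slc6a6 and Itga8, which rose, and Pla2g5, which fell. The calls rested on the spread shared by all 4 days, since none of the 31042 probe sets passed when the 6 arrays were fitted alone (1377 higher and 1253 lower at an unadjusted p under 0.05, by limma). They also moved with single arrays. Without day 7 replicate 2, 147 probe sets were higher and 15 lower, and without day 2 replicate 2 no probe set passed in either direction (1792 higher and 1466 lower at an unadjusted p under 0.05).

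The differences that did not pass were often large. A log2 difference over 1 was seen for 528 probe sets higher and 54 lower on day 7, so sizeable differences lay mostly on the higher side. Among 14217 genes, each read by its brightest probe set with a single gene symbol, 830 (5.84%) had every day 7 array above every day 2 array and 1405 (9.88%) had every day 7 array below. The median difference over these genes was -0.05 on the log2 scale, and the middle of the distribution ran from -0.33 at the 10th percentile to 0.38 at the 90th. Without day 2 replicate 1 the shares were 10.4% above and 19.2% below. They are not like for like with the first shares, since fewer day 2 arrays have to be cleared and separation is easier to reach. These shares are the background against which the gene groups are read. Only Ccl4 and Ifit3, among the 931 measured members of 68 gene lists, passed the test on that probe set, so every other listed gene is described by its values.

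**Figure D1:**
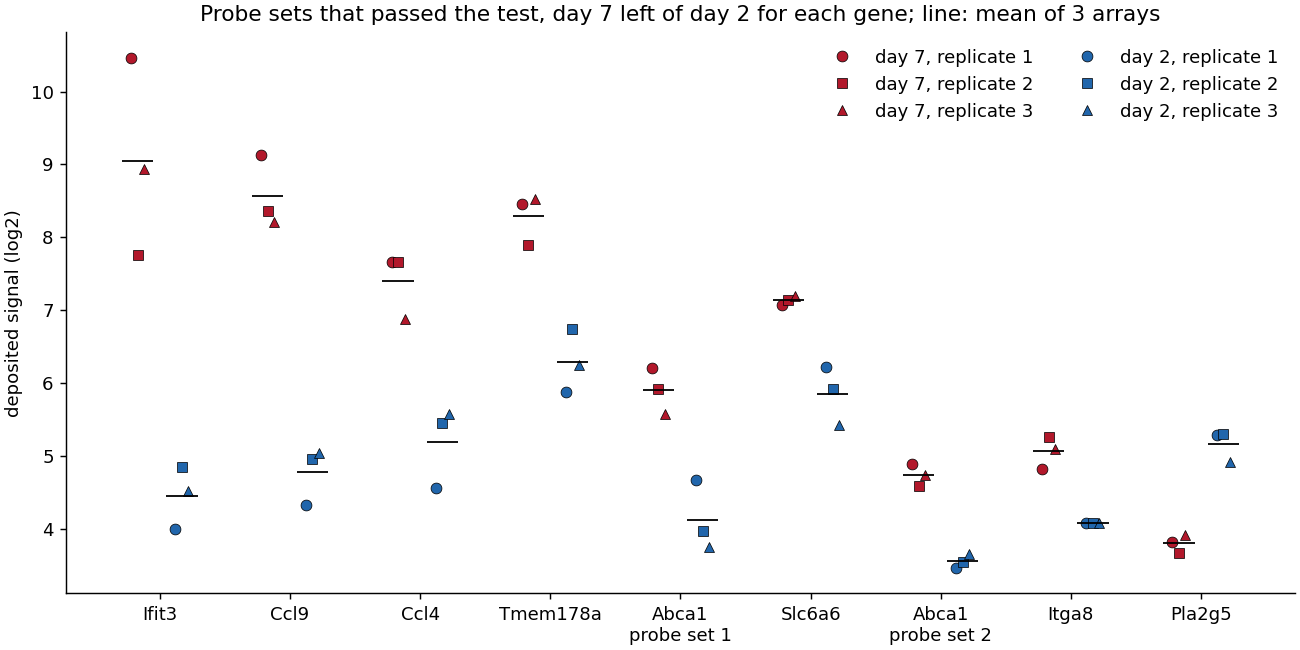
Deposited log2 signal (vertical axis) of the 9 named probe sets that passed the test, for the 3 day 7 arrays (red, left) and the 3 day 2 arrays (blue, right) of each gene, with the symbol giving the replicate and the line the mean. In every gene the 2 days are separated, and Ifit3 has the widest spread within day 7, between 7.75 and 10.5.

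Ifit3, an antiviral protein made in response to interferon, showed the largest rise. Its log2 signal was 10.46, 7.75 and 8.94 in the day 7 arrays, against 4.00, 4.84 and 4.52 in the day 2 arrays. The difference was 4.60 ± 0.51 on the log2 scale (SE, n = 3 each, limma adjusted p = 0.0239), a 24.2-fold higher signal. The day 5 arrays already stood at 7.95, 8.26 and 7.75, and the day 14 arrays at 4.08, 3.82 and 3.81. Ifit3 was thus high on days 5 and 7 and near its day 2 level on day 14. Leaving out 1 array at a time gave differences between 3.89 and 5.25.

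Ccl9, a chemokine that in mice acts on myeloid cells through Ccr1, read 9.13, 8.36 and 8.22 on day 7, against 4.33, 4.96 and 5.04 on day 2. The difference was 3.79 ± 0.40 on the log2 scale (adjusted p = 0.0209, limma). Unlike Ifit3, Ccl9 stood higher in every day 7 array than in any other TNBS array, with 5.18, 5.04 and 5.84 on day 5 and 6.06, 4.98 and 4.42 on day 14. Its difference ranged from 3.51 to 3.97 when single arrays were left out. Ccl4, a chemokine for monocytes and T cells, read 7.66, 7.66 and 6.88 on day 7, against 4.56, 5.45 and 5.58 on day 2, a difference of 2.20 ± 0.29 (adjusted p = 0.0363, limma). Each day 7 array was again above all 9 other TNBS arrays.

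Abca1, the transporter that exports cholesterol from macrophages and other cells, passed on 2 of its 4 probe sets. The dimmer read 4.89, 4.59 and 4.74 on day 7, against 3.47, 3.54 and 3.65 on day 2 (difference 1.19 ± 0.14, adjusted p = 0.0240, limma). The other read 6.21, 5.92 and 5.58, against 4.66, 3.97 and 3.75 (difference 1.78 ± 0.25, adjusted p = 0.0427, limma). Both were higher on day 7 than in any other TNBS array. The brightest Abca1 probe set, by which the gene is read elsewhere, gave 7.68, 7.86 and 7.94, against 6.13, 6.68 and 6.23 (difference 1.48 ± 0.32), and did not pass (adjusted p = 0.126, limma). All 4 probe sets lay between 1.19 and 1.78.

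Slc6a6, the taurine transporter, was also called on a probe set that is not its brightest, and its brightest probe set did not pass. Unlike Abca1, which is also among the named members of its list, Slc6a6 is named here after its values were seen. It read 7.07, 7.14 and 7.20 on day 7, against 6.23, 5.92 and 5.42 on day 2 (difference 1.28 ± 0.17, adjusted p = 0.0363, limma). The day 7 arrays lay close to each other while the day 2 arrays spread more widely. Tmem178a, a membrane protein of the endoplasmic reticulum, read 8.46, 7.90 and 8.52 on day 7, against 5.88, 6.74 and 6.25 on day 2 (difference 2.00 ± 0.27, adjusted p = 0.0363, limma). Its day 5 arrays overlapped those of day 7, at 7.29, 8.16 and 7.76.

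Itga8, the integrin alpha 8 subunit of mesenchymal and smooth muscle cells, read 4.82, 5.27 and 5.10 on day 7, against 4.07, 4.08 and 4.08 on day 2 (difference 0.99 ± 0.13, adjusted p = 0.0363, limma). The day 5 and day 14 means were 4.01 and 4.09, so the 3 day 7 arrays alone stood above. The signal was low on both days, above 49.9% of probe sets on day 7 and 29.4% on day 2. A second Itga8 probe set differed by 0.30.

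Pla2g5, a secreted phospholipase A2 that releases fatty acids for eicosanoid synthesis, was the one probe set that fell. It read 3.82, 3.67 and 3.92 on day 7, against 5.28, 5.30 and 4.92 on day 2, a difference of -1.36 ± 0.13 (adjusted p = 0.0148, limma), the smallest adjusted p of the comparison. Its day 5 arrays were between the 2 days at 4.35, 4.51 and 4.57, and its day 14 arrays were near day 7 at 3.91, 3.91 and 4.15. Day 2 was the highest, and every day 5 array was still above every day 7 and day 14 array. The signal of Pla2g5 was low, above 51.7% of probe sets on day 2 and 21.9% on day 7. Pla2g5 kept its call in 13 of 16 alternative settings, Ifit3 in 11 of 17 and Ccl9 in 10 of 17. The other secreted phospholipase named here, Pla2g2a, an antibacterial product of Paneth and other epithelial cells, read 12.06, 10.28 and 10.64 on day 7, against 12.18, 12.53 and 12.40 on day 2. That difference of -1.37 ± 0.38 did not pass (adjusted p = 0.212, limma), although the arrays did not overlap.

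The 4 called probe sets with no gene symbol listed differed by 3.43, 3.09, 2.56 and 1.12 on the log2 scale. For the last 3, every day 7 array was above every other TNBS array.

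**Figure D2:**
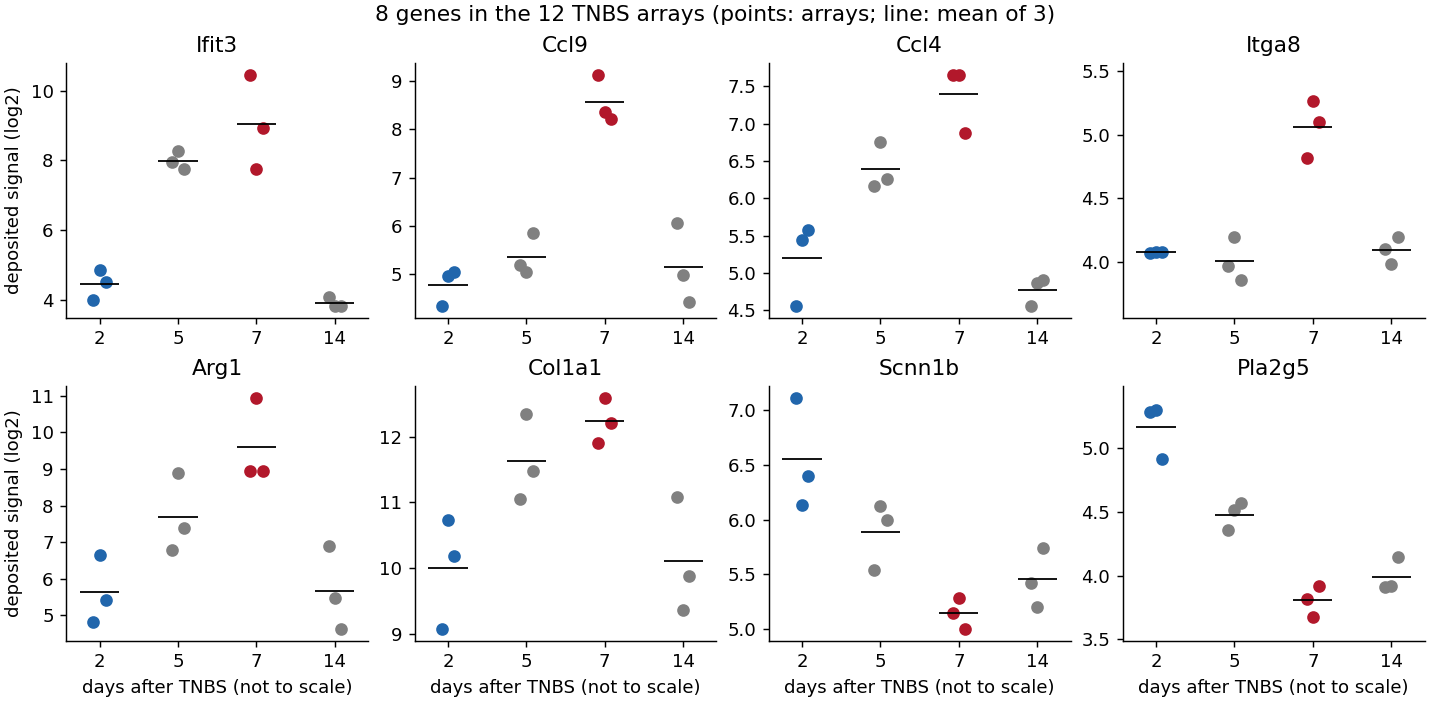
Deposited log2 signal (vertical axis) of 8 genes at days 2, 5, 7 and 14 after TNBS, 3 arrays a day (points) with their mean (line); day 7 is red and day 2 blue. Ifit3 is high at days 5 and 7, Ccl9, Ccl4 and Itga8 are highest in the day 7 arrays, and Pla2g5 is highest at day 2.

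The promoters of 3 genes are shown because they carry known control elements of the groups described next. Each is the window from 250 bases before to 50 bases after the annotated start, from RefSeq on build GRCr8, read 5' to 3' in the direction of the gene. For Ifit3 (chr1:241527076-241527375, plus strand) capitals mark the paired half-sites of the interferon-stimulated response element, searched as GAAANNGAAA on both strands. For the neutrophil chemokine Cxcl1 (chr14:17479272-17479571, minus strand) and for Nfkbia (chr6:78597023-78597322, minus strand), which encodes the inhibitor of NF-kB, capitals mark kappaB motifs.
Ifit3: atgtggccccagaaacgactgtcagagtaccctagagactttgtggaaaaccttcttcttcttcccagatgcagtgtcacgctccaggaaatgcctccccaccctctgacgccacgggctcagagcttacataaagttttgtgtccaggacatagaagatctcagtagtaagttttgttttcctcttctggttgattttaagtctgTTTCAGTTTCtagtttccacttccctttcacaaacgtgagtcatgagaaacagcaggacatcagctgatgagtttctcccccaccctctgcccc
Cxcl1: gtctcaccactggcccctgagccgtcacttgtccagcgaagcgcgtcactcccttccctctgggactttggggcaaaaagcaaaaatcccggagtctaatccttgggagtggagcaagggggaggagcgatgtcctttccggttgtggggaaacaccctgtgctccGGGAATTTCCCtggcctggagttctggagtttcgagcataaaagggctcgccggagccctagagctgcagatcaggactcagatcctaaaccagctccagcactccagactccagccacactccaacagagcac
Nfkbia: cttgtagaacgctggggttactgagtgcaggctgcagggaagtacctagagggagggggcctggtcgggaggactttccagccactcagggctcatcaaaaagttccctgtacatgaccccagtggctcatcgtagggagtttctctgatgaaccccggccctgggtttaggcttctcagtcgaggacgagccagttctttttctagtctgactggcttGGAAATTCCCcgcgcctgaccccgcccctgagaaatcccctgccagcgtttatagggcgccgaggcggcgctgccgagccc
The Ifit3 element begins 44 bases before the start and lies on the opposite strand. Cxcl1 holds 2 overlapping matches that begin 84 and 83 bases before the start, and Nfkbia holds 1 that begins 31 bases before it. Of 33469 RefSeq rat promoters of this length, 3.92% hold the interferon element and 7.51% the kappaB motif. Among listed genes with a promoter in the table, 9 of 14 interferon-stimulated genes hold the interferon element, as do 5 of 11 CXC chemokines and 7 of 13 genes of TNF receptors and NF-kB feedback for kappaB. A match describes the letters and says nothing of binding in these tissues.

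The interleukin-1 family, whose ligands drive fever and leukocyte recruitment, was higher on day 7 in most of its measured members. Of 12 genes, 7 had every day 7 array above every day 2 array (58.3%, against 5.84% of all genes). In 1 every array was below (8.33%, against 9.88%). The median difference was 1.19 on the log2 scale, and 0.99 without day 2 replicate 1. Il1b, the main secreted ligand, read 12.82, 11.57 and 11.88 on day 7, against 7.74, 9.97 and 9.52 on day 2 (difference 3.01 ± 0.53, adjusted p = 0.109, limma, and 2.34 without day 2 replicate 1). Il1rn, the secreted receptor antagonist, read 8.26, 7.23 and 7.64, against 4.77, 5.98 and 5.56 (difference 2.27 ± 0.44, adjusted p = 0.115). Ligand and antagonist were both higher in every day 7 array, and replicate 1 of day 2 was the lowest array for both. Among the receptor chains, Il1r1, which signals, differed by 1.20 ± 0.18 (adjusted p = 0.0773) and its partner Il1rap by 1.57 ± 0.41 (adjusted p = 0.184). Their other probe sets differed less, since the 3 of Il1r1 ranged from -0.10 to 1.20 and the second of Il1rap differed by 0.10. Il1r1 read 8.18, 7.60 and 7.85 on day 7, against 6.43, 6.67 and 6.92 on day 2.

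Acute cytokines outside that family were less uniform. Of 18 measured, 2 had every day 7 array above (11.1%, against 5.84% of all genes) and 1 below (5.56%, against 9.88%). Their median difference was 0.06. Tnf read 7.49, 4.89 and 5.63 on day 7, against 4.08, 4.27 and 4.53 on day 2 (difference 1.71 ± 0.48, adjusted p = 0.219, limma), and a second Tnf probe set differed by -0.10. Osm, a cytokine of the interleukin-6 type, read 10.55, 6.62 and 7.53, against 5.27, 6.23 and 6.04 (difference 2.39 ± 0.78, adjusted p = 0.284). Both were far higher in replicate 1 of day 7 than in its other arrays, and their lowest differences when single arrays were left out were 0.96 and 1.23. Il6 overlapped between the days, at 8.09, 5.53 and 6.13 in the day 7 arrays against 4.49, 6.17 and 4.86. Of 13 interleukin-6 type receptor and SOCS feedback genes, 1 was above (7.69%, near the 5.84% of all genes) and 1 below, Cish at -0.25 ± 0.21. The one above was Socs3, at 8.90, 7.17 and 7.78 against 5.62, 6.09 and 6.82 (difference 1.77 ± 0.42, adjusted p = 0.155), while Socs1 and Socs2 overlapped at -0.03 and 0.13.

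Genes of TNF receptors and NF-kB feedback are induced by NF-kB, and many of them then restrain it. Of 17 members, 7 had every day 7 array above (41.2%, against 5.84% of all genes) and none were below. Their median difference was 0.56, and it moved to 0.35 without day 7 replicate 1 and to 1.05 without day 2 replicate 3. Nfkbia read 12.71, 10.72 and 11.41 on day 7, against 9.14, 9.42 and 10.03 on day 2 (difference 2.08 ± 0.41, adjusted p = 0.115, limma). Tnfrsf1b, the second TNF receptor, read 8.37, 7.17 and 7.32, against 4.69, 5.79 and 5.80 (difference 2.19 ± 0.38, adjusted p = 0.106). Tnfaip3, the ubiquitin-editing enzyme that damps NF-kB signals, differed by 1.78 ± 0.38 and Nfkb1, a subunit of NF-kB, by 0.87 ± 0.19 (both with adjusted p = 0.126).

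Immediate early genes, transcribed within minutes of many stimuli, had 10 of 19 members above (52.6%, against 5.84% of all genes) and 1 below (5.26%, against 9.88%). Their median difference was 1.08, and 0.66 without day 7 replicate 1, which was the highest array. Junb, an AP-1 subunit, read 12.12, 10.11 and 10.55 on day 7, against 9.004, 9.46 and 9.57 on day 2. Dusp1, a phosphatase that switches off MAP kinases, read 11.16, 9.54 and 10.20, against 8.33, 8.72 and 8.76, and both of its probe sets differed by at least 1.69. Egr2 (1.65 ± 0.31, adjusted p = 0.112, with a second probe set at 0.07) and Fosl2 (1.08 ± 0.25, adjusted p = 0.148, limma) did not overlap either. Within day 7 the mean over the list was 9.21, 7.98 and 8.59, so the arrays of that day differed among themselves by more than those of day 2, at 7.66, 7.60 and 7.86.

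Chemokines differed in both directions. Of 13 CXC chemokines, 4 were above and 1 below, and of 16 members of the CC list, which also held Cx3cl1 and Xcl1, 2 were above and 4 below. The median differences were 0.37 and 0.05, and ranged from -0.04 to 0.44 and from -0.21 to 0.14 when single arrays were left out. Cxcl1 read 11.40, 9.003 and 9.99 on day 7, against 7.38, 8.996 and 8.25 on day 2, with the lowest day 7 array barely above the highest day 2 array (difference 1.92 ± 0.62, adjusted p = 0.278, limma). Cxcl2, of the same neutrophil-attracting group, read 12.67, 11.46 and 11.56, against 8.17, 11.19 and 10.78, and its difference of 1.85 became 0.91 without day 2 replicate 1. Ccl3, the close relative of Ccl4, read 11.38, 10.13 and 10.10, against 5.74, 8.90 and 7.98 (difference 2.99 ± 0.68, adjusted p = 0.142, and 2.10 without day 2 replicate 1). Ccl22, a chemokine of dendritic cells and macrophages for Ccr4-bearing T cells, read 4.05, 3.97 and 3.78 against 4.06, 4.57 and 4.95. Its highest day 7 array was barely below its lowest day 2 array. The difference was -0.60 ± 0.19 (adjusted p = 0.276, limma), and -0.16 on a second probe set.

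**Figure D3:**
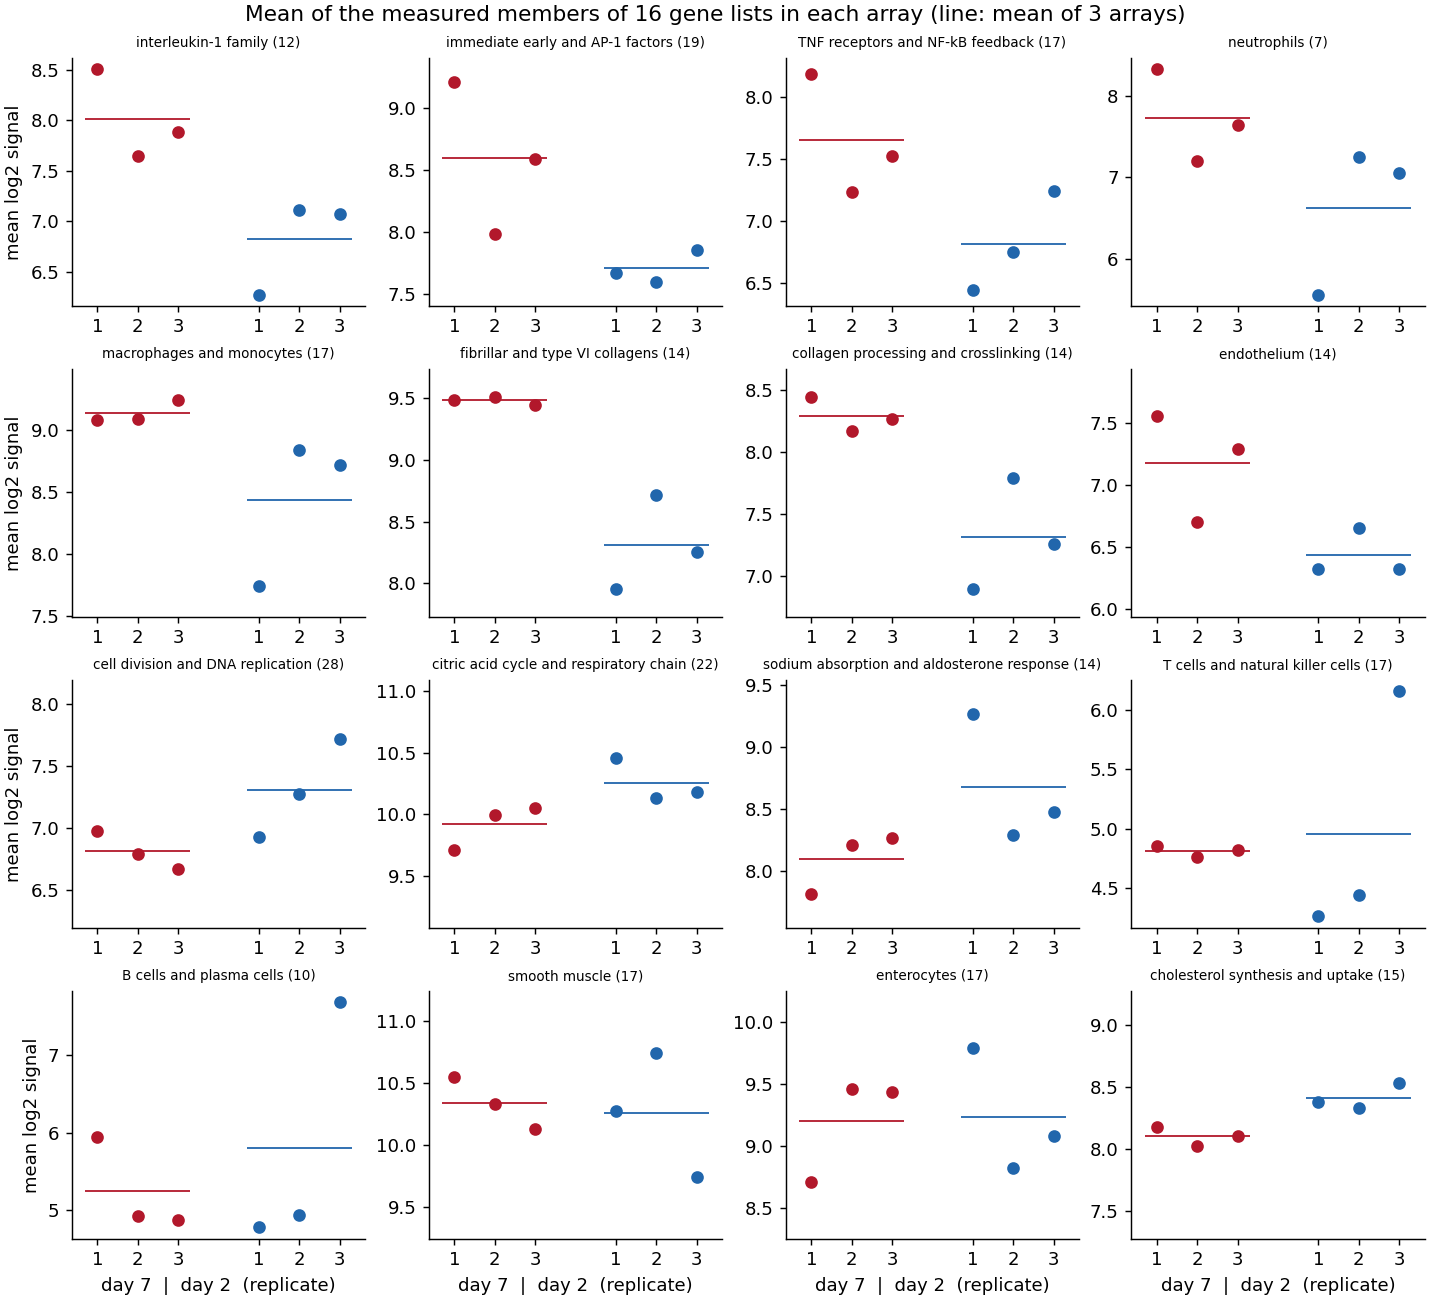
Mean log2 signal (vertical axis) over the measured members (number in brackets) of 16 gene lists in each of the 3 day 7 arrays (red, left) and 3 day 2 arrays (blue, right), with the mean of each day as a line. Replicate 1 of day 2 is the lowest array for neutrophil, macrophage and collagen genes and the highest for sodium absorption, and replicate 3 of day 2 is the highest for lymphocyte genes.

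Neutrophil markers depended on 1 day 2 array. Of 7 measured, 2 had every day 7 array above (28.6%, against 5.84% of all genes). The median difference of the list, 1.26, became 0.39 without day 2 replicate 1. S100a8 and S100a9 form calprotectin, the abundant cytosolic protein of neutrophils. S100a8 read 12.41, 10.79 and 11.60 on day 7, against 7.89, 11.05 and 10.91 on day 2, and S100a9 read 13.35, 12.41 and 12.85, against 9.88, 12.58 and 12.37. Both overlapped, and their differences of 1.65 and 1.26 became 0.62 and 0.39 without that array. Csf3r, the receptor for granulocyte colony-stimulating factor, did not overlap, at 8.94, 7.89 and 9.02 against 4.11, 6.68 and 6.23 (difference 2.94 ± 0.62, adjusted p = 0.126, limma, and 2.16 without day 2 replicate 1). Cxcr2, the receptor for Cxcl1 and its relatives, read 6.80, 5.09 and 5.22, against 3.79, 4.45 and 4.15. No member of the S100 list was above in every day 7 array. Of its 12 members 5 were below (41.7%, against 9.88% of all genes), with S100a16 at -0.53 and S100a6 at -0.28.

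Macrophage and monocyte markers had 5 of 17 above (29.4%, against 5.84% of all genes) and none below. Their median difference of 0.49 became 0.17 without day 2 replicate 1 and 0.82 without day 2 replicate 3. Clec7a, the dectin-1 receptor for fungal glucans, read 9.78, 8.45 and 9.25 on day 7, against 5.34, 7.07 and 6.48 on day 2 (difference 2.86 ± 0.47, adjusted p = 0.0955, limma). Aif1 overlapped (1.07 ± 0.39, and -0.15 on a second probe set). Cd163, a scavenger receptor of resident macrophages, also overlapped, at 5.71, 7.15 and 6.65 against 6.42, 7.56 and 6.61. Fc receptor genes, through which antibody-coated targets are taken up, had 3 of 8 above (37.5%, against 5.84% of all genes) and a median of 0.90. Fcer1g, their shared signalling chain, was among those above, at 11.37, 10.81 and 11.10 against 8.61, 10.43 and 9.94.

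Arg1, the arginase that macrophages use to turn arginine into ornithine, had one of the largest differences that did not pass. It read 8.93, 10.95 and 8.95 on day 7, against 4.81, 6.66 and 5.41 on day 2 (difference 3.99 ± 0.76, adjusted p = 0.115, limma). On day 5 it read 6.79, 8.89 and 7.40, between both days, and on day 14 its mean of 5.67 was near that of day 2, 5.63. Nos2, the inducible nitric oxide synthase that competes for the same substrate, overlapped and differed by -0.14 ± 0.18. The other arginase, Arg2, did not overlap and differed by 0.80 ± 0.27 (adjusted p = 0.308).

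Abca1 was not the only gene of lipid export that was higher. Of 16 apolipoprotein and cholesterol efflux genes, 6 were above (37.5%, against 5.84% of all genes) and none below. The median of the list was nonetheless 0.15, with 0.055 to 0.39 when single arrays were left out and the highest without day 7 replicate 1. Abcg1, which loads cholesterol onto high-density lipoprotein, read 7.76, 7.51 and 7.78 on day 7, against 5.74, 6.38 and 7.04 on day 2 (difference 1.30 ± 0.29, adjusted p = 0.138, limma), while its 3 probe sets ranged from -0.05 to 1.30. Pltp, the phospholipid transfer protein, read 8.02, 9.03 and 9.02, against 7.09, 7.13 and 7.10 (difference 1.58 ± 0.32, adjusted p = 0.118). Apoc1 differed by 1.24 ± 0.29. Cholesterol synthesis lay on the other side. Of 15 genes of synthesis and uptake, 8 had every day 7 array below every day 2 array (53.3%, against 9.88% of all genes). None were above, and the median difference was -0.33, with -0.34 without day 2 replicate 1. Fdps, an enzyme of the isoprenoid steps, differed by -0.50 ± 0.13 and Dhcr7, which makes cholesterol in the last step, by -0.46 ± 0.12, both small beside the efflux genes (adjusted p = 0.184 and 0.176).

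Among interferon-stimulated genes, 5 of 21 were above (23.8%, against 5.84% of all genes) and none below. Their median of 0.43 ranged from 0.23, without day 7 replicate 1, to 0.71 when single arrays were left out. Beside Ifit3, Oasl, an oligoadenylate synthetase-like protein, read 8.99, 8.03 and 8.53 on day 7, against 7.33, 6.98 and 7.20 on day 2 (difference 1.35 ± 0.21, adjusted p = 0.0773, limma). Oas1a differed by 1.53 ± 0.42 and the guanylate-binding protein Gbp2 by 1.47 ± 0.46. The list mean was 7.35, 6.33 and 6.88 on day 7, against 6.11, 6.05 and 6.16 on day 2. Antigen presentation was less clear. None of 12 genes of class I processing separated the days, and of 10 class II genes only RT1-Bb did (10.0% above, against 5.84% of all genes). RT1-Bb read 9.24, 8.05 and 9.17, against 8.03, 6.26 and 4.50 (difference 2.55 ± 0.69, adjusted p = 0.200, and 3.44 without day 2 replicate 1). All 10 class II genes had a positive difference, with a median of 0.69 that ranged from 0.33 without day 2 replicate 1 to 1.17 without day 2 replicate 3.

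Complement genes had 4 of 16 above and 2 below. C3, the central component, read 9.97, 9.21 and 9.66 on day 7, against 5.55, 8.73 and 8.27 on day 2, a difference of 2.10 ± 0.76 that became 1.11 without day 2 replicate 1 (adjusted p = 0.341, limma). Of 19 mucosal antimicrobial and acute phase genes, 3 were above (15.8%, against 5.84% of all genes) and 2 below (10.5%, near 9.88%). The median of that list was 0.06, and its members Hp, Orm1 and Cp overlapped, at 1.17, 0.62 and 0.19. A2m, the acute phase protease inhibitor of the rat and a member of that list, showed the second largest difference among the genes described here. It read 11.70, 8.58 and 11.60 against 4.58, 6.33 and 8.47. Its arrays came close, since the lowest day 7 value exceeded the highest day 2 value by little, and it did not pass (difference 4.16 ± 0.98, adjusted p = 0.152, and 3.22 without day 2 replicate 1).

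**Figure D4:**
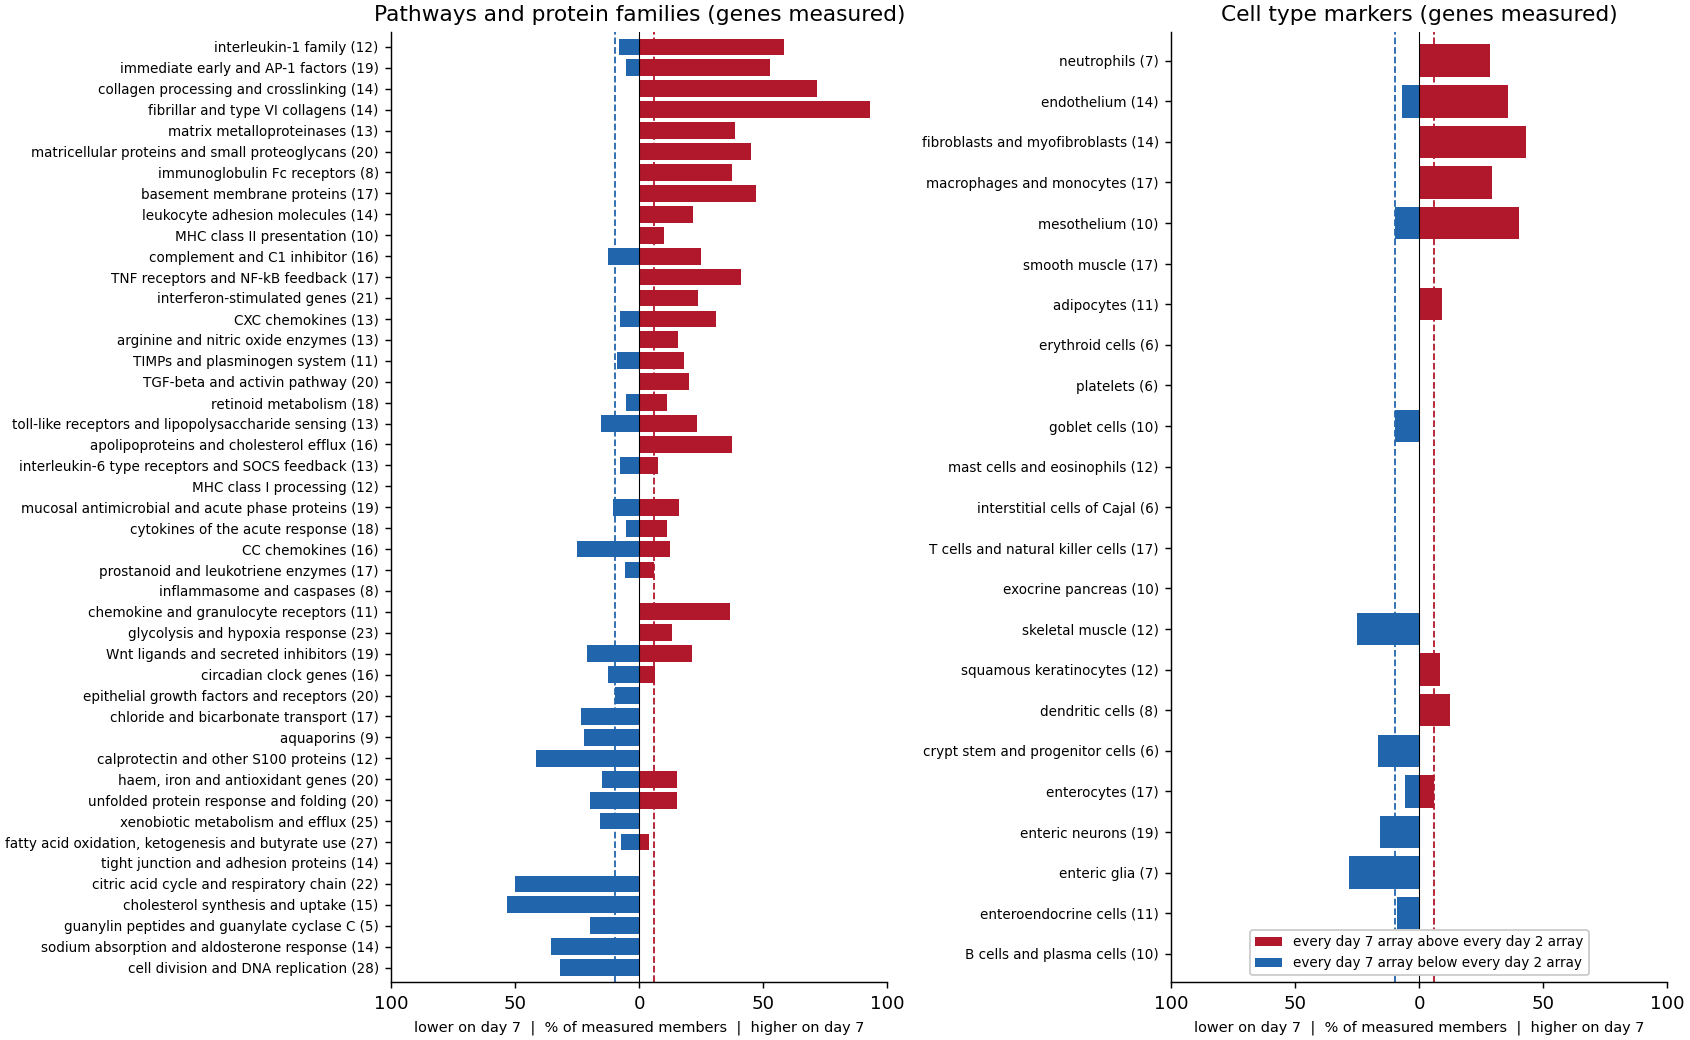
Share of the measured members of each gene list (number in brackets) whose day 7 arrays were all above (red, right) or all below (blue, left) the day 2 arrays, as % of members, for 45 pathways and families and 23 sets of cell type markers, ordered by median difference. Dashed lines mark the shares over all 14217 genes, 5.84% above and 9.88% below. The list of fibrillar and type VI collagens reaches 92.9% above.

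The list of fibrillar and type VI collagens had the largest share of separated members among the 68 lists. It also held Col12a1, Col14a1 and Col16a1, which are of other types. Of 14 measured, 13 (92.9%, against 5.84% of all genes) had every day 7 array above every day 2 array. None were below, and the median difference was 0.98 (0.86 without day 2 replicate 1). Col1a1, the main chain of type I collagen, read 11.90, 12.59 and 12.21 on day 7, against 9.07, 10.73 and 10.18 on day 2 (difference 2.24 ± 0.50, adjusted p = 0.138, limma). Col3a1, of the type III collagen that accompanies it, read 12.82, 12.68 and 12.66, against 11.51, 12.27 and 12.004 (difference 0.79 ± 0.21). Col5a1 differed by 1.35 ± 0.29 and Col6a1 by 0.94 ± 0.19, both with adjusted p = 0.126. The exception was Col2a1, the cartilage collagen, which overlapped and differed by 0.11. The list mean was 9.48, 9.51 and 9.44 on day 7, against 7.95, 8.71 and 8.25 on day 2, so the 3 day 7 rats were close to each other.

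Genes that process and crosslink collagen had 10 of 14 above (71.4%, against 5.84% of all genes) and none below. Their median was 1.03 (0.73 without day 2 replicate 1). Loxl2, a lysyl oxidase that crosslinks fibres, read 8.75, 8.53 and 8.18 on day 7, against 6.41, 7.63 and 5.84 on day 2, a difference of 1.86 that was 0.77 on its second probe set. Pcolce, which speeds the trimming of procollagen by Bmp1, differed by 1.43 ± 0.35, and Bmp1 itself by 0.61 ± 0.16. Basement membrane proteins had 8 of 17 above (47.1%, against 5.84% of all genes) and none below. Their median was 0.81 (0.74 without day 2 replicate 1). Their separated members included Col4a1 and Col4a2, of type IV collagen, and the chains of type XV and XVIII, while Col4a5 overlapped at -0.11. Col4a1 read 11.41, 10.38 and 10.69 on day 7, against 8.76, 9.80 and 9.26 on day 2, and Col15a1 and Col18a1 differed by 1.90 ± 0.37 and 1.66 ± 0.34. Lamb1, a laminin chain, differed by 0.81 ± 0.19.

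Among matricellular proteins and small proteoglycans, 9 of 20 were above (45.0%, against 5.84% of all genes) and none below. Their median was 0.94 (0.72 without day 2 replicate 1). Bgn, the proteoglycan biglycan, had the smallest adjusted p of the matrix genes, at 10.68, 10.10 and 10.49 on day 7 against 8.46, 9.20 and 9.04 on day 2 (difference 1.52 ± 0.24, adjusted p = 0.0773, limma). Postn, periostin, read 11.30, 11.13 and 11.02, against 9.95, 10.53 and 9.88. Thbs2 and Fbln2 differed by 1.96 ± 0.40 and 2.05 ± 0.48. Spp1, osteopontin, was wide within both days and overlapped, at 9.55, 8.36 and 7.64 against 5.97, 7.89 and 7.82.

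Matrix metalloproteinases, which cut these proteins, had 5 of 13 above (38.5%, against 5.84% of all genes) and none below. Their median of 0.95 became 0.53 without day 2 replicate 1. Mmp14, a membrane-bound collagenase, read 11.18, 11.22 and 11.52 on day 7, against 9.67, 10.27 and 9.83 on day 2 (difference 1.38 ± 0.26, adjusted p = 0.115, limma). Mmp2, which Mmp14 activates, differed by 1.27 ± 0.31, while a second Mmp2 probe set differed by 0.07. Mmp9 and Mmp3 overlapped, with Mmp9 at 7.48, 6.47 and 6.05 against 4.42, 7.35 and 5.84. Timp1, the inhibitor of these enzymes, also overlapped and was numerically lower, at 11.63, 10.68 and 11.05 on day 7 against 10.83, 12.40 and 11.84 on day 2 (difference -0.58 ± 0.52). Plaur, the urokinase receptor, did not overlap (1.61 ± 0.38, and 0.27 on a second probe set).

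Activin subunits were the largest differences of the TGF-beta and activin list, in which 4 of 20 were above and none below. Inhba, whose dimers form activin A, read 9.99, 7.99 and 9.31 on day 7, against 5.13, 7.05 and 6.34 on day 2 (difference 2.92 ± 0.64, adjusted p = 0.131, limma), although its second probe set differed by 0.23. Inhbb differed by 2.21 ± 0.56. Tgfbi, a matrix protein induced by TGF-beta, read 11.02, 10.94 and 11.02, against 9.62, 10.57 and 9.86, and the receptor Tgfbr1 differed by 0.36 ± 0.12 and by -0.11 on its second probe set.

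**Figure D5:**
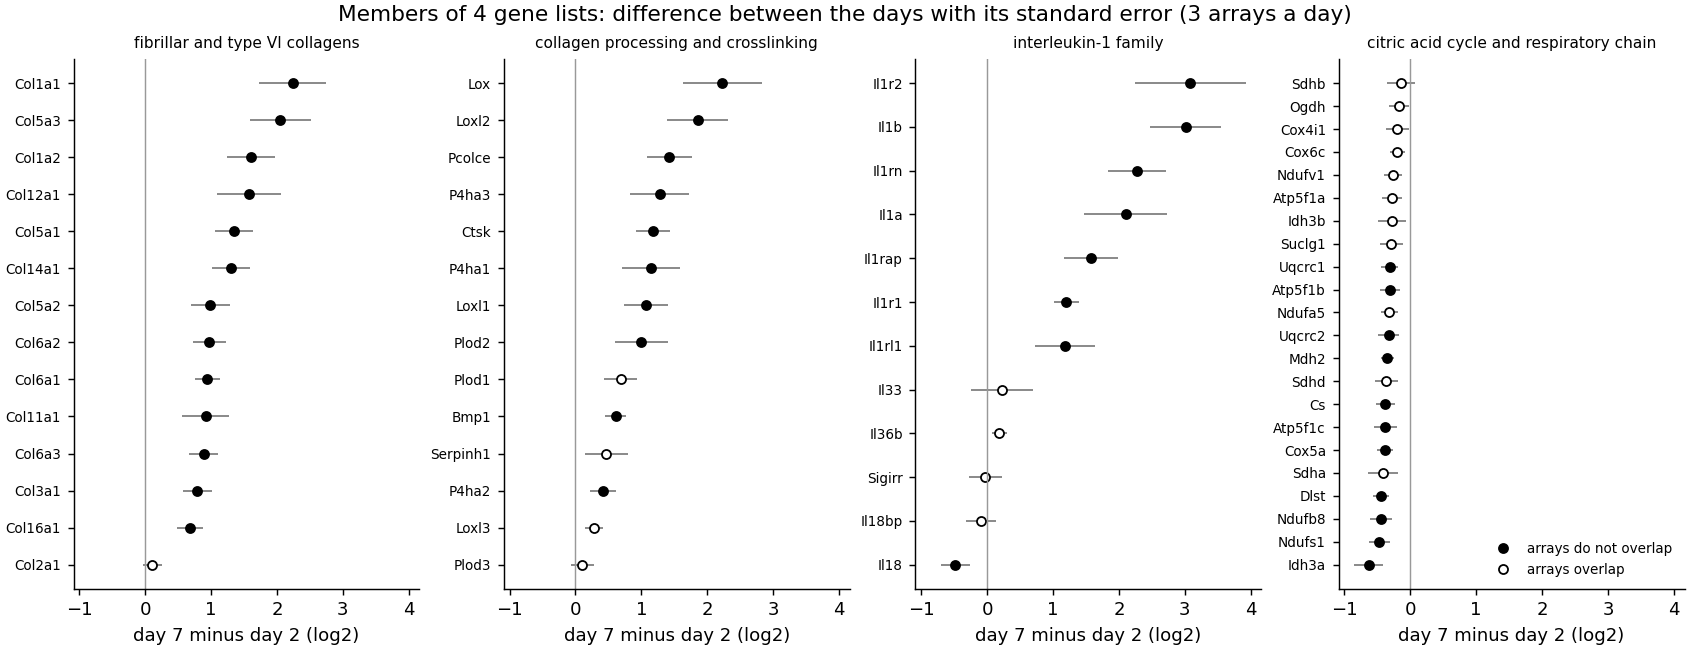
Day 7 minus day 2 difference on the log2 scale (horizontal axis) with its standard error for every measured member of 4 lists, with filled points where the arrays of the 2 days do not overlap. The collagens and their processing genes lie right of 0, the interleukin-1 family splits into 7 separated genes above 1 and 5 others, and the citric acid cycle and respiratory chain genes lie left of 0.

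Markers of the stromal and vascular cells of the wall were counted in the same way. Of 14 fibroblast markers 6 were above (42.9%, against 5.84% of all genes) and none below, with a median of 0.84 (0.50 without day 2 replicate 1). Those above included Fbn1, fibrillin, at 9.09, 9.16 and 8.97 on day 7 against 7.53, 8.32 and 7.93 on day 2. Pdgfrb, the receptor of pericytes and fibroblasts, was also above, at 1.15 ± 0.34, with its 3 probe sets between 0.41 and 1.15. Of 14 endothelial markers 5 were above (35.7%, against 5.84% of all genes) and 1 below (7.14%, against 9.88%). Their median was 0.94 (0.76 without day 2 replicate 1). Kdr, the main receptor for vascular endothelial growth factor, read 7.83, 6.87 and 7.47, against 6.04, 5.94 and 5.63 (difference 1.52 ± 0.32, adjusted p = 0.126, limma), while its other probe set differed by -0.06. Plvap, which forms the diaphragms of capillary endothelium, read 9.14, 8.60 and 9.29, against 8.14, 8.12 and 8.02. Smooth muscle markers, by contrast, had none of 17 separated in either direction and a median of 0.10, which ranged from -0.12 to 0.30 when single arrays were left out. The part of these cells in the matrix differences was not tested.

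Mesothelial markers, of the serosal lining, had 4 of 10 above and 1 below (40.0% and 10.0%, against 5.84% and 9.88% of all genes). Their median difference was 0.21, and 0.11 without day 2 replicate 1. Krt8, Krt19, Bnc1, Gpm6a and Cdh3 overlapped, at -0.26, -0.15, -0.04, 0.03 and 0.39. Msln, mesothelin, read 6.36, 5.88 and 7.37 on day 7, against 4.39, 4.52 and 5.03 on day 2 (difference 1.89 ± 0.36, adjusted p = 0.115, limma). Wt1 and Upk1b differed by 1.09 ± 0.27 and 1.31 ± 0.31, and a second Wt1 probe set by -0.11. Calb2, calretinin, which enteric neurons also make, was lower in every day 7 array, at 5.41, 6.08 and 6.28 against 7.17, 6.92 and 6.40.

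Ion transport genes of the surface epithelium had members below and none above. Of 14 genes of sodium absorption and its control by aldosterone, 5 were below (35.7%, against 9.88% of all genes) and none above. The list held Cap1, an actin-binding protein that has no part in sodium uptake. Its median difference was -0.46, and -0.18 without day 2 replicate 1. Scnn1b and Scnn1g are subunits of the epithelial sodium channel. Scnn1b read 5.14, 5.28 and 5.00 on day 7, against 7.12, 6.13 and 6.40 on day 2 (difference -1.41 ± 0.25, adjusted p = 0.106, limma), and Scnn1g read 4.45, 4.53 and 4.30, against 5.54, 4.76 and 4.95. Fxyd4, a regulator of the sodium pump, read 9.61, 6.85 and 8.87, against 11.25, 10.19 and 10.51 (difference -2.21 ± 0.71, adjusted p = 0.280). Hsd11b2, which keeps glucocorticoids off the aldosterone receptor, overlapped at -1.08 ± 0.37.

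Of 17 chloride and bicarbonate transport genes 4 were below (23.5%, against 9.88% of all genes) and none above. The median was -0.06, with -0.23 to 0.21 when single arrays were left out and the highest without day 2 replicate 1. Best2, a bicarbonate channel of goblet cells, read 6.35, 6.10 and 6.31 on day 7, against 7.98, 7.57 and 7.98 on day 2 (difference -1.59 ± 0.32, adjusted p = 0.126, limma). Clca4, a regulator of calcium-activated chloride channels, read 11.10, 10.14 and 9.76, against 11.83, 11.35 and 12.13 (difference -1.44 ± 0.37, adjusted p = 0.177). Atp12a, the colonic proton-potassium pump, read 8.17, 5.62 and 7.85, against 10.19, 8.98 and 9.51 (difference -2.34 ± 0.94, adjusted p = 0.404). Aqp3, a basolateral water and glycerol channel, did not overlap (-1.30 ± 0.42), while Aqp8 overlapped, at 6.19, 5.24 and 5.13 against 8.44, 5.45 and 5.70. The chloride exchanger Slc26a3 and the sodium exchanger Slc9a3 overlapped widely, with differences of 0.19 ± 0.56 and -0.57 ± 0.96. Of 10 goblet cell markers 1 was below (10.0%, near the 9.88% of all genes) and none above, with a median of -0.02. The one below was the peptide Tff3, at 10.82, 10.62 and 11.05 against 11.66, 11.49 and 11.72 (difference -0.79 ± 0.21, adjusted p = 0.196, limma). Muc2 overlapped and differed by 0.13 ± 0.30. Enterocyte markers as a list were near 0, with 1 of 17 above and 1 below (5.88% each, against 5.84% and 9.88% of all genes). Their median of -0.12 ranged from -0.28 to 0.15 when single arrays were left out.

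Cell division genes were lower on day 7 in their fitted difference in all 28 measured members, with a median of -0.53. In 9 of 28 every day 7 array was below every day 2 array (32.1%, against 9.88% of all genes). Without day 2 replicate 1 the median was -0.73 and 24 of 28 were below both remaining day 2 arrays, against 19.2% of all genes. Without day 2 replicate 3 the median was -0.28, so the size followed the day 2 array that also held the highest lymphocyte signal. Mcm4, of the replicative helicase, read 7.18, 6.70 and 6.36 on day 7, against 7.23, 7.54 and 8.19 on day 2. Tyms, thymidylate synthase, read 4.10, 4.73 and 4.32, against 5.24, 5.36 and 5.18 (difference -0.88 ± 0.19, adjusted p = 0.126, limma), with no day 2 array apart. Mki67, the usual label of cycling cells, overlapped (-0.54 ± 0.25).

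Mitochondrial energy genes were lower by a smaller amount. All 22 genes of the citric acid cycle and respiratory chain had a negative difference, with a median of -0.32. Of these, 11 had every day 7 array below every day 2 array (50.0%, against 9.88% of all genes). Without day 2 replicate 1 the median was -0.23, with 11 below. Ndufs1, of complex I, read 8.22, 8.59 and 8.85 on day 7, against 9.15, 8.85 and 9.06 on day 2. Dlst, of the 2-oxoglutarate dehydrogenase complex, read 8.49, 8.69 and 8.71, against 9.30, 8.93 and 8.98 (difference -0.44 ± 0.12, adjusted p = 0.211, limma). Hspa9, the mitochondrial chaperone, had one of the smallest adjusted p values among lower genes, at 9.04, 9.20 and 8.74 against 9.87, 9.58 and 9.62 (difference -0.70 ± 0.13, adjusted p = 0.112), although its 4 probe sets ranged from -0.75 to 0.23.

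Lymphocyte markers did not separate the days. Of 17 T cell and natural killer markers and 10 B cell and plasma cell markers, none had non-overlapping arrays, and the medians were -0.06 and -0.60. The mean over the B cell list was 5.94, 4.93 and 4.88 on day 7, against 4.78, 4.93 and 7.68 on day 2, and that over the T cell list was 4.86, 4.76 and 4.82, against 4.26, 4.44 and 6.16. Cd79b, part of the B cell receptor, was 6.76, 4.47 and 4.61, against 4.53, 4.82 and 9.07. Replicate 3 of day 2 thus set the sign. Without it the medians were 0.38 for T cells and 0.22 for B cells, and without day 2 replicate 1 they were -0.38 and -1.09.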

How the data were processed

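Full-thickness rat colon was profiled on 1-colour Affymetrix arrays, with 3 arrays for each TNBS day. The deposited log2 values were normalized by the authors with the affyPLM package of Bioconductor, per the labels' design text, whose version and background method, like the log base, are not stated in those texts. The scale was read as log2 from its range. Whether all arrays were normalized together is not given either, and such a step can shrink a shift that all genes share. The labels call the 3 arrays of a day replicates and the design text speaks of rats. No other normalization was applied.

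Of 31099 probe sets, 57 array controls were left out. GEO's platform annotation gave 1 symbol to 20826 probe sets, several to 436 and none to 9780, and 20812 of the first were found in the RefSeq table. A gene was read by its brightest single-symbol probe set over the 12 TNBS arrays. In limma 3.58.1 (R 4.3.3) a model with 1 coefficient per day was fitted to the 12 TNBS arrays, with the contrast day 7 minus day 2, empirical Bayes moderation, two-sided p-values and Benjamini-Hochberg adjustment over all tested probe sets. Errors of differences are standard errors of that fit. The fit was tested on simulated data. Exact permutation tests went through every split of the 6 arrays into 3 and 3, in Python 3.11.15 with numpy 2.4.6.

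By a rule, the genes named are the called genes read by their brightest probe set (up to 15 in each direction), up to 4 members of each list with the smallest p, a panel of 30 genes of which 28 were measured, and the 8 genes in each direction with the smallest p. Slc6a6 and some further list members are given outside this rule, which named 288 genes in all. For 79 of these 288 over 1 probe set was measured, and in 17 the probe sets differ in sign. The comparison, lists and panel were chosen with earlier results of these data known. Of 1056 listed genes 931 were measured, and 47 stand in over 1 list. Alternatives covered normalization, the samples in the fit, the prior, array weights, filters on low signal, thresholds and single arrays left out. The number of arrays limits the precision.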

Additional observations from a re-analysis of the deposited data

How the results depend on the processing

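The counts of called probe sets, 12 higher and 1 lower on day 7, moved with several settings, while no named gene reversed in a call. Quantile normalization over the 12 arrays gave 6 higher and 1 lower, and array weights gave 20 and 2. Leaving out the lowest 50% of probe sets by mean signal gave 7 and 0, and 1 probe set per gene gave 5 and 1. Fitting the 6 arrays alone gave 0 and 0, whereas adding the 6 saline arrays to the fit gave 231 and 53, and the cause was not tested. An adjusted p under 0.01 gave 0 and 0, and one under 0.1 gave 23 and 3. Leaving out 1 array at a time gave 0 to 147 higher and 0 to 15 lower, the most without day 7 replicate 2 and the fewest without day 2 replicate 2. Of the 13 called probe sets, 13 were still called without day 7 replicate 2, 3 without day 7 replicate 1, 3 without day 2 replicate 1, 1 without day 7 replicate 3, 1 without day 2 replicate 3 and 0 without day 2 replicate 2. With the replicate number as a replicate block, 0 and 0 probe sets passed (1760 higher and 1847 lower at an unadjusted p under 0.05, limma). The deviations of same-numbered arrays correlated at -0.31, -0.02 and -0.20, and no array correlated best with its own number. These values showed no pairing by number. They cannot exclude one, since the deviations of 3 arrays from their own mean are tied to each other. Median centring, a trended or a robust prior, leaving out the lowest 25% of probe sets and asking for a log2 change over 1 kept both counts within 1.5 times. Over named genes and alternatives, 4683 values kept direction and side of the threshold, 99 newly passed and 38 no longer passed. Outliers within a day were not sought, since each day has 3 arrays, and 3 against 3 arrays with no ethanol group and with rats chosen for inflammation limit what the days can show.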

Other observations

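Several genes outside the groups described above had small adjusted p values without passing. Slamf9, a receptor of the signalling lymphocyte activation family, read 7.99, 8.49 and 7.87 on day 7, against 5.70, 6.67 and 6.61 on day 2, a log2 difference of 1.79 ± 0.27 (SE, n = 3 each, limma adjusted p = 0.0773). Tmpo, a protein of the nuclear lamina, read 8.11, 8.05 and 7.98, against 8.73, 8.61 and 8.78 (difference -0.66 ± 0.10, adjusted p = 0.0773), though its second probe set differed by -0.13. Fasn, the fatty acid synthase, read 8.57, 8.45 and 8.60, against 8.99, 9.05 and 9.05 (difference -0.49 ± 0.09, adjusted p = 0.112), and both of its probe sets were near that value. Tomm5, of the pore through which mitochondria import proteins, read 8.84, 8.65 and 8.76, against 9.43, 9.21 and 9.48.

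Other lists were split or near the background. Of 20 unfolded protein response genes 3 had every day 7 array above and 4 below, with Ddit3, the stress factor CHOP, at 10.12, 7.99 and 9.27 on day 7 against 6.71, 7.62 and 7.65 on day 2 (difference 1.80 ± 0.49) and the chaperone Hsp90b1 at -0.47 ± 0.16. Of 19 Wnt ligands and secreted inhibitors 4 were above and 4 below (21.1% each, against 5.84% and 9.88% of all genes). Wnt4 read 6.28, 6.64 and 7.26, against 4.61, 5.14 and 5.31 (difference 1.71 ± 0.32, adjusted p = 0.112, limma), and Sfrp1, a secreted inhibitor, 8.07, 8.36 and 7.78, against 6.27, 6.78 and 6.65. Of 11 enteroendocrine markers 1 was below (9.09%, near the 9.88% of all genes) and none above, with a median of -0.19. The one below was the gut hormone Pyy, at 6.31, 7.10 and 6.75 against 8.30, 7.44 and 7.80 (difference -1.13 ± 0.27, adjusted p = 0.158, limma). The epithelial glutathione peroxidase Gpx2 read 11.81, 10.99 and 11.49, against 12.43, 12.56 and 12.54 (difference -1.08 ± 0.23), while the secreted Gpx3 read 9.28, 9.46 and 9.75, against 8.25, 8.56 and 8.54 (difference 1.05 ± 0.19). Adipocyte markers had 1 of 11 above (9.09%, against 5.84% of all genes) and none below. Their mean was highest in replicate 2 of day 7, at 7.51, against 6.39 and 6.64 in the other day 7 arrays and 6.25 to 7.10 in the day 2 arrays.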
